A study of Mus musculus with 14 samples.

Results

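Genes that mark blood vessel endothelium were followed in hepatic cultures that did or did not contain endothelial-like cells. The 10 genes, Vwf, Tek, Tie1, Pecam1, Cdh5, Kdr, Cav1, Gja5, Eng and Erg, were listed by name, with earlier results of these data known, and were taken from the 28022 genes of the deposited mouse count table. The RNA-seq libraries number 14, a pair for each of 7 conditions, and every label gives the strain as C57BL/6J. Fib denotes embryonic mouse fibroblasts, and 2D-iHepSC denotes induced hepatic stem cells that were converted from such fibroblasts with Hnf4alpha and Oct4, both carried by lentiviral vectors with the SFFV promoter. 2D-iHepSCiEC is the monolayer co-culture of iHepSCs with induced endothelial cells (iECs). 3D-iHA consists of iHepSC spheroids alone, called iHLOs in the study, in a hydrogel of type I collagen and Matrigel, and 3D-iHEA is the same with iECs mixed into the hydrogel. Adult-Liver and Fetal-Liver are tissue, and no library is labelled with a treatment of its own or an age in numbers. The iECs were made from HF1, a line of human adult fibroblasts, with human ETV2 in the same kind of vector, and were sorted for the CDH5 and PECAM1 proteins at their surface. All reads were aligned to the mouse genome, so a transcript of the human cells entered a count only as far as its reads matched mouse sequence. The study describes 1 mixed hepatic and endothelial medium with oncostatin M for the 4 cultures, but the labels give no medium for the sequenced libraries.

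Endothelial cells line vessels and are held together by VE-cadherin and PECAM-1, the products of Cdh5 and Pecam1. They store von Willebrand factor (Vwf) for clotting and read their surroundings through the receptor kinases VEGFR2 (Kdr), TIE2 (Tek) and TIE1 (Tie1), with endoglin (Eng) as a coreceptor for BMP9 and related TGF-beta family ligands. Caveolin-1 (Cav1) builds the flask-shaped caveolae that are abundant in endothelium, connexin 40 (Gja5) forms gap junctions in arterial cells, and ERG is an ETS family transcription factor that keeps many endothelial genes active. In the liver, the sinusoids are lined by a specialised endothelium that is open to the plasma and carries little Vwf, whereas larger vessels resemble those of other organs. Several of these genes are also used outside endothelium, Cav1 in fibroblasts and many epithelia, Vwf in megakaryocytes and Eng in stromal cells.

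Promoters are shown for the 5 members whose patterns differ most clearly below, namely Tek and Gja5, whose counts were highest in 3D culture, Cav1, which was high in all cultures, and Eng and Erg, which were low in all cultures. Each sequence holds the 250 bases before an annotated transcript start, 5′ to 3′ on the strand of the gene, from RefSeq on GRCm38.p6. The 7 members with a promoter entry in RefSeq were Tek, Tie1, Kdr, Cav1, Gja5, Eng and Erg, and the windows of Tie1 and Kdr reached into exons. Capitals mark GGAA, the core of the ETS motif, on either strand, so that TTCC is the same core read from the other strand. The windows lie at chr4:94739039-94739288 (+) for Tek, chr3:97032152-97032401 (+) for Gja5, chr6:17306085-17306334 (+) for Cav1, chr2:32646345-32646594 (+) for Eng and chr16:95586594-95586843 (−) for Erg.
Tek: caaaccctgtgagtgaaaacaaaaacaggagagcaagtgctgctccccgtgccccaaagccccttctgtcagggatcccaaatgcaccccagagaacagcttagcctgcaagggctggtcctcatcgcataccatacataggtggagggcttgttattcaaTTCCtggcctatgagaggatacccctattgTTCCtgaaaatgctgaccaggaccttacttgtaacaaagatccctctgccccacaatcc
Gja5: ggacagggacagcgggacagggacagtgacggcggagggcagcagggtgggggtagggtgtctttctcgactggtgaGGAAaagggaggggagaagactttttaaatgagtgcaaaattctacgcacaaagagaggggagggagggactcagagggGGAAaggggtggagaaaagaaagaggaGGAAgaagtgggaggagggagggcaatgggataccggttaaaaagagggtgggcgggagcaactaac
Cav1: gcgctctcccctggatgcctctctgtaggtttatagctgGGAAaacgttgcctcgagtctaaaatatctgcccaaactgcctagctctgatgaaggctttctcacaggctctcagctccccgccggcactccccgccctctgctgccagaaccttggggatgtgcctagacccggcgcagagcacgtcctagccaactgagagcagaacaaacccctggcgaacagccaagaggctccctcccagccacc
Eng: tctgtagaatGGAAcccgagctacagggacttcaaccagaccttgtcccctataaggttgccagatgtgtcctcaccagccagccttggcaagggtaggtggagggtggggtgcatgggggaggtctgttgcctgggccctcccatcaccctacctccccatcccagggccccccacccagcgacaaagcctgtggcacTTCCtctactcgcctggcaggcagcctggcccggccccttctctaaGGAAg
Erg: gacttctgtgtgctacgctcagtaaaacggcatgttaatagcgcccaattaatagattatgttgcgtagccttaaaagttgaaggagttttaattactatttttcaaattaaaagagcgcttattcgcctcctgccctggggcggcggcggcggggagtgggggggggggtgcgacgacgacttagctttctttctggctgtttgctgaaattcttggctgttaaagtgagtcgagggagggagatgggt
The core occurred 3 times in the windows of Gja5 and Eng, 2 times in that of Tek and 1 time in that of Cav1. The window of Erg had no match to these letters. RefSeq lists 2 further starts for Erg, whose windows held 4 and 2 cores, and 1 further start for Cav1 with 3 cores, and the windows shown are those farthest upstream. Across 32851 promoter windows of the same length, 93.4% held at least 1 core, so its presence sets none of the 4 apart. The longer ETS motif CGGAAG was found in 13.6% of all windows and in none of these 5. ACAAT, the core that SOX factors recognise, occurred 2 times in the Tek window and in 27.7% of all windows, and TATAAA occurred 1 time in the Cav1 window and in 12.4% of all windows, with both motifs searched on both strands.

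Library totals ranged from 20851489 to 35143325 counts, and 3 counts, taken here as the floor of detection, corresponded to 0.0751 to 0.204 CPM (counts per library size, scaled by TMM). TMM factors ran from 0.429 in Adult-Liver, where Alb alone took 23.6% and 22.5% of the counts, to 1.20. The difference between both libraries of a condition, as a chi-square per gene where counting noise gives 1, was 2.93 to 3.49 in 5 conditions, 10.9 in 3D-iHEA and 12.7 in Fetal-Liver, so no pair was a single library deposited in duplicate. The label of every library reads replicate 1 and nothing states separate cultures or animals, so p-values measure the spread between these libraries, which may be technical. The labels were checked by Col1a1 in Fib (384378 and 347938 counts), Afp in Fetal-Liver (432944 and 336523 counts) and Alb in Adult-Liver. In the cultures the epithelial keratin gene Krt19 had 16159 to 31981 counts against 126 and 104 in Fib, whereas Alb had only 2 to 210 counts. Of 6 haematopoietic genes, Ptprc, Gfi1b and Cd48 were at the floor in every culture, but the list summed to 117 to 122 CPM in the 2D cultures and 224 to 263 CPM in the 3D cultures, beside 261 to 301 CPM in Fetal-Liver and 58.9 to 59.2 CPM in Adult-Liver. Of its 3 genes that were tested, 2 were higher in 3D-iHA than in 2D-iHepSC, where 36.9% of all genes were higher, and their part in the results below was not tested.

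The members did not behave as 1 group, as the plot of all 10 genes by library shows. Vwf, Tek and Gja5 had their highest mean in 3D-iHA, Cdh5 and Cav1 in 2D-iHepSC, Erg in Fib, Tie1 in Fetal-Liver, and Pecam1, Kdr and Eng in Adult-Liver, where by total count the last 3 were highest in Fetal-Liver and Cdh5 in 3D-iHA. In bulk libraries, fewer cells that express a gene and less of its RNA per cell cannot be told apart, which applies to every level below. Differences were tested by quasi-likelihood in edgeR, and a gene was called when its Benjamini-Hochberg adjusted p over all genes tested was under 0.05. Of the 10 members, 8 had enough counts to be tested in the fit of the 8 culture libraries (13409 genes), while Kdr and Erg did not. All 10 were tested in the fit of all 14 libraries (14121 genes). Kdr passed that filter through the tissue libraries and Erg through those of tissue and Fib, where their counts were high.

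**Figure D1:**
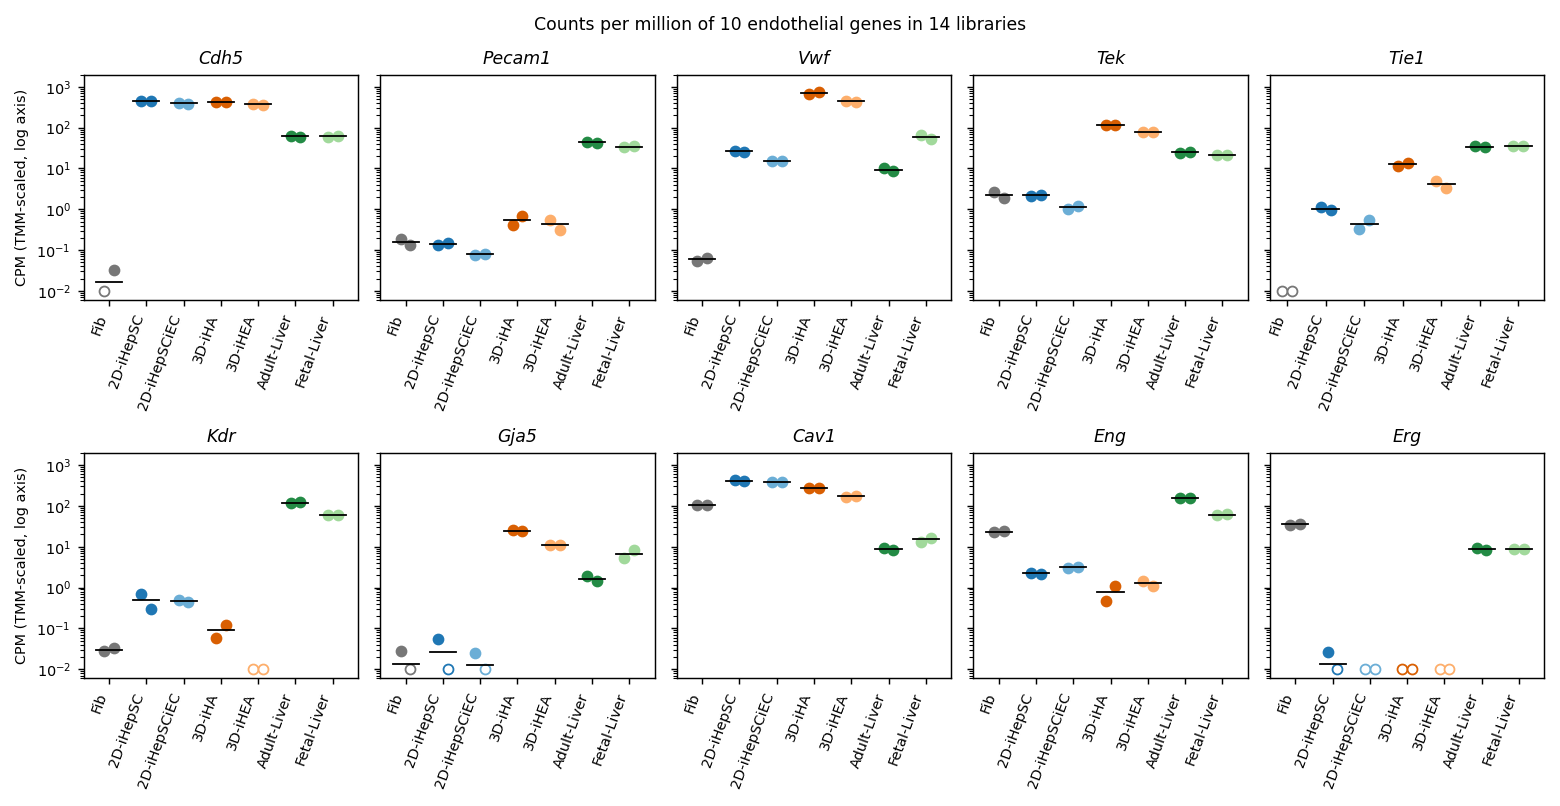
CPM of each member (log axis) in the 14 libraries, grouped by condition, with a bar at the mean of both libraries and open symbols at the bottom for libraries with 0 counts. Vwf, Tek and Gja5 sit highest in 3D-iHA, Cdh5 sits between 362 and 443 CPM in all 8 culture libraries, and Erg has at most 1 count in any culture library.

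Cdh5, which encodes the adhesion molecule of endothelial adherens junctions, lies at chr8:104101625-104144511 (+) of GRCm38. It was at 0 and 1 count in Fib and at 443 and 437 CPM in 2D-iHepSC, that is, 16261 and 14322 counts. Summed over both libraries, the ratio was 29641 (95% counting interval 5320 to 1170780), and against the floor of detection it was at least 4898. The edgeR fit put the difference at 23058-fold (adjusted p = 6.14e-18). The groups were far apart, and the other 3 cultures stood beside 2D-iHepSC. Cdh5 was at 403 and 389.9 CPM in 2D-iHepSCiEC, 416 and 436 CPM in 3D-iHA, and 389 and 362 CPM in 3D-iHEA. The difference between 3D-iHA and 2D-iHepSC was -0.00 on the log2 scale (95% interval -0.11 to 0.10, adjusted p = 0.945), and that between 3D-iHEA and 2D-iHepSCiEC was -0.04 (-0.15 to 0.06, adjusted p = 0.431). Among the 8 tested members, Cdh5 had the smallest change between monolayer and 3D culture in both comparisons. Both liver tissues were lower, at 64.2 and 59.3 CPM in Adult-Liver and 59.0 and 63.1 CPM in Fetal-Liver.

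Pecam1, the other junction protein, lies at chr11:106654217-106750628 (−) and showed the opposite arrangement. It had 669 and 635 counts in Adult-Liver and 1079 and 1042 in Fetal-Liver. All cultures and the fibroblasts were near the floor, with 7 and 4 counts in Fib, 5 and 5 in 2D-iHepSC, 3 and 2 in 2D-iHepSCiEC, 14 and 22 in 3D-iHA, and 19 and 9 in 3D-iHEA. Both 3D conditions were above their 2D counterparts. The log2 fold change was 1.93 (SE 0.48, adjusted p = 0.00281) for 3D-iHA against 2D-iHepSC and 2.49 (SE 0.58, adjusted p = 0.00181) for 3D-iHEA against 2D-iHepSCiEC, where the ratio of summed counts was 5.77 (2.20 to 19.1). Pecam1 had too few counts to be tested when 3D-iHA replicate 1 or 2 or 3D-iHEA replicate 1 was left out. The log2 fold change of Pecam1 in 3D-iHA against Adult-Liver was -6.36 (SE 0.17, adjusted p = 7.52e-15).

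Vwf, at chr6:125546774-125686679 (+), encodes the large glycoprotein that tethers platelets to damaged vessel walls. Fib had 2 and 2 counts, 2D-iHepSC 1010 and 838, and 2D-iHepSCiEC 604 and 363. In 3D-iHA it reached 22039 and 25206 counts (654 and 767 CPM, mean 710.8 ± 79.7, SD, n = 2) and in 3D-iHEA 15418 and 11946 (456 and 419 CPM). The conditions were ordered Fib, 2D cultures and 3D cultures with no overlap of libraries. The ratio of 2D-iHepSC to Fib was 448 (175 to 1645, adjusted p = 1.61e-13), and the further rise in 3D was 27.6-fold for 3D-iHA against 2D-iHepSC (log2 4.79, SE 0.08, adjusted p = 2.2e-13) and 29.7-fold for 3D-iHEA against 2D-iHepSCiEC (log2 4.89, SE 0.09, adjusted p = 2.1e-13). Adult-Liver was at 10.1 and 8.74 CPM and Fetal-Liver at 65.1 and 52.1 CPM, so every 3D library lay above both tissues. Every neighbouring pair in the order of the 7 conditions, from 3D-iHA through 3D-iHEA, Fetal-Liver, 2D-iHepSC, 2D-iHepSCiEC and Adult-Liver to Fib, passed the test for Vwf.

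Tek, at chr4:94739289-94874976 (+), encodes the receptor of the angiopoietins. It was low in Fib (96 and 57 counts), 2D-iHepSC (79 and 75) and 2D-iHepSCiEC (41 and 30). In 3D-iHA it had 3892 and 3906 counts (116 and 119 CPM), and in 3D-iHEA 2673 and 2252 (79.0 and 79.0 CPM). The groups did not overlap between 2D and 3D. The rise was 54.4-fold for 3D-iHA against 2D-iHepSC (log2 5.77, SE 0.08, adjusted p = 7.6e-14) and 72.9-fold for 3D-iHEA against 2D-iHepSCiEC (log2 6.19, SE 0.09, adjusted p = 1.4e-13). Adult-Liver (24.1 and 25.6 CPM) and Fetal-Liver (21.2 and 21.7 CPM) lay between the 2D and 3D cultures. Unlike Vwf and Cdh5, Tek was not called between 2D-iHepSC and Fib (log2 -0.04, 95% interval -0.37 to 0.29), so the difference appeared at the step from monolayer to 3D.

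Tie1, at chr4:118471191-118490061 (−), encodes the partner receptor of TIE2, for which no high-affinity ligand of its own is established. It had 0 and 0 counts in Fib and 41 and 31 in 2D-iHepSC, which was at least 11.5-fold higher against the floor of 3 counts per library (adjusted p = 1.26e-06). In 3D-iHA it reached 394 and 451 counts (11.7 and 13.7 CPM), 12.6-fold above 2D-iHepSC (log2 3.66, SE 0.21, adjusted p = 4.6e-09). In 3D-iHEA it had 168 and 97 counts, 10.5-fold above the 13 and 13 counts of 2D-iHepSCiEC (log2 3.39, SE 0.28, adjusted p = 2.1e-07). Tie1 thus rose in 3D together with Tek. The tissues had 34.7 and 33.0 CPM (Adult-Liver) and 36.2 and 36.1 CPM (Fetal-Liver), above all cultures on the TMM scale, whereas by total count without TMM the means were 14.9 CPM in 3D-iHA and 14.7 CPM in Adult-Liver.

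Kdr, at chr5:75932827-75978458 (−), encodes the main signalling receptor for VEGF-A and was abundant in both tissues and low in Fib and all cultures. Adult-Liver had 117 and 125 CPM and Fetal-Liver 61.5 and 60.9 CPM. Counts in the cultures were 25 and 10 in 2D-iHepSC, 20 and 11 in 2D-iHepSCiEC, 2 and 4 in 3D-iHA, and 0 and 0 in 3D-iHEA. Kdr was therefore lower in 3D than in 2D, in contrast to Tek and Tie1. With the listed genes under the filter added to those tested, the log2 fold change was -2.38 (SE 0.61, adjusted p = 0.00375) for 3D-iHA against 2D-iHepSC, and Kdr was at least 4.92-fold lower in 3D-iHEA than in 2D-iHepSCiEC (adjusted p = 0.000226). 2D-iHepSC in turn was above Fib (1 and 1 count) by a ratio of 17.0 (4.36 to 146, adjusted p = 5.62e-05).

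The ligands and the other receptors of these pathways were taken from fixed lists. Of 18 ligand genes, 15 were tested, and 3 rose and 8 fell in 3D-iHA against 2D-iHepSC (median log2 fold change -0.28), a share of 73.3% that is near the 72.3% of all genes called. Angpt1, the activating ligand of TIE2, had 11 and 4 counts in 2D-iHepSC and 48 and 40 in 3D-iHA (log2 2.64, SE 0.39), against 3278 and 2594 in Fib. Vegfa, the ligand of VEGFR2, was abundant in all cultures, with 18692 and 17531 counts in 2D-iHepSC and 14771 and 12933 in 3D-iHA (log2 -0.28, SE 0.06). Of 17 receptor and coreceptor genes outside the members, 14 were tested, and 5 rose and 9 fell in 3D-iHA (median -0.77), beside 36.9% of all genes higher and 35.3% lower. Ptprb, which encodes VE-PTP, the phosphatase that acts on TIE2 and VE-cadherin, went from 6562 and 5460 counts to 878 and 821 (log2 -2.71, SE 0.08). Flt1, the decoy-like VEGF receptor, went from 5 and 4 counts to 70 and 13 (log2 3.27, SE 0.75), with both libraries of 3D-iHA far apart.

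Gja5, the connexin 40 gene at chr3:96904693-97077416 (+), was the member with the sharpest contrast between 2D and 3D. No library of Fib, 2D-iHepSC or 2D-iHepSCiEC had more than 2 counts. 3D-iHA had 851 and 779 counts (25.3 and 23.7 CPM) and 3D-iHEA 376 and 317 (11.1 and 11.1 CPM). The ratio of summed counts was 851 (235 to 7033, adjusted p = 3.9e-12) for 3D-iHA against 2D-iHepSC and 714 (128 to 28223, adjusted p = 4.6e-11) for 3D-iHEA against 2D-iHepSCiEC. Both were above Adult-Liver (1.90 and 1.43 CPM) and Fetal-Liver (5.25 and 8.15 CPM). Exons of Gja5 overlap those of Gpr89 over 165 bases. Gpr89 had 1568 and 1358 counts in 2D-iHepSC and 1394 and 1401 in 3D-iHA, which did not move with Gja5, and whether the counting used strand is not given in the sources used here. Among 19 other connexin genes, 6 were tested and 5 of them fell in 3D-iHA against 2D-iHepSC, where 35.3% of all genes were lower. Gja1, the broadly used connexin 43 gene, went from 1114 and 948 counts to 52 and 103 (log2 -3.62, SE 0.27). The 1 that rose was Gjb1, the main hepatocyte connexin, with 19 and 17 counts in 2D-iHepSC and 395 and 323 in 3D-iHA (log2 4.41, SE 0.24). Gja4, the other connexin typical of arteries, had at most 8 counts in any culture library.

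Cav1, at chr6:17306335-17341452 (+), encodes the structural protein of caveolae. It was at 106 and 103 CPM in Fib, 426 and 407 CPM in 2D-iHepSC and 375 and 387 CPM in 2D-iHepSCiEC. It was lower in 3D, at 272 and 273 CPM in 3D-iHA and 169 and 175 CPM in 3D-iHEA, with no overlap. The log2 fold change was -0.57 (SE 0.05, adjusted p = 2.5e-07) for 3D-iHA against 2D-iHepSC and -1.11 (SE 0.05, adjusted p = 4.0e-10), a 2.16-fold fall, for 3D-iHEA against 2D-iHepSCiEC. Cav1 was 3.96-fold higher in 2D-iHepSC than in Fib (log2 1.98, SE 0.07, adjusted p = 4.1e-13). Both tissues were far lower, at 9.31 and 8.54 CPM in Adult-Liver and 13.3 and 16.9 CPM in Fetal-Liver. Of 8 other genes of the caveolar coat, 6 were tested, and 5 fell in 3D-iHA against 2D-iHepSC (83.3% called, beside 72.3% of all genes), including Cav2 (-0.37, SE 0.08), the partner of caveolin-1, and Ehd2 (-1.68, SE 0.05), an ATPase at the neck of caveolae. Cavin3 was at 1264 and 1117 counts in Fib and at 0 to 3 in every culture library.

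Eng, at chr2:32646595-32682669 (+), was at 844 and 727 counts in Fib (23.0 and 23.7 CPM) and at 86 and 69 in 2D-iHepSC, 10.5-fold lower (log2 -3.39, SE 0.13, adjusted p = 7.0e-13). It was lower again in 3D, with 16 and 35 counts in 3D-iHA and 49 and 31 in 3D-iHEA, against 121 and 78 in 2D-iHepSCiEC. The change was -1.49 (SE 0.31, adjusted p = 0.000777) for 3D-iHA against 2D-iHepSC and -1.25 (SE 0.28, adjusted p = 0.00152) for 3D-iHEA against 2D-iHepSCiEC. With single libraries left out, these log2 values ranged from -2.17 to -1.01 and from -1.47 to -1.07. Adult-Liver had 157 and 157 CPM and Fetal-Liver 60.4 and 61.8 CPM, an order that turned by total count (means of 67.9 and 71.0 CPM). Exons of Eng overlap Fpgs over 61 bases, and Fpgs had 1223 and 1176 counts in 2D-iHepSC and 912 and 847 in 3D-iHA. Acvrl1, the receptor ALK1 that signals together with endoglin, moved the other way in 3D, from 9 and 15 counts to 166 and 115 (log2 3.63, SE 0.31, adjusted p = 2.45e-07). Gdf2, which encodes BMP9, the ligand of both, had at most 2 counts in any culture library and 586 and 543 in Adult-Liver.

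Erg, at chr16:95359169-95586593 (−), was the only member at the floor of detection in every culture. Its counts were 1 and 0 in 2D-iHepSC and 0 in the other 6 culture libraries. Fib had the highest level, 1270 and 1093 counts (34.6 and 35.7 CPM), and the tissues had 9.25 and 8.35 CPM (Adult-Liver) and 8.80 and 8.75 CPM (Fetal-Liver). The ratio of Fib to 2D-iHepSC was 2438 (437 to 96341, adjusted p = 6.93e-13). Against the floor of 3 counts per library, Erg was at least 353-fold lower in 2D-iHepSCiEC, at least 389.6-fold lower in 3D-iHA and at least 362-fold lower in 3D-iHEA than in Fib. Of 16 other transcription factors used in endothelium, 10 were tested, and 3 rose and 2 fell in 3D-iHA against 2D-iHepSC, or 50% beside 72.3% of all genes. Etv2, Sox18 and Tal1 were at the floor in every culture, Lyl1 in both 2D cultures and Sox7 in 3D-iHA. Sox17 was at 0 and 0 counts in Fib, 4308 and 4004 in 2D-iHepSC and 5117 and 4990 in 3D-iHA (log2 0.39, SE 0.05). Klf2, a factor that responds to shear stress, had 35 and 43 counts in 2D-iHepSC and 414 and 416 in 3D-iHA (log2 3.51, SE 0.16). The ETS factors Fli1 (397 and 328 counts to 66 and 94, log2 -2.07, SE 0.16) and Ets1 (2103 and 1829 to 460 and 422, log2 -2.05, SE 0.06) fell. Etv2, the mouse counterpart of the factor used to make the iECs, was at 0 in every culture library.

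Counted together, 5 of the 8 tested members rose and 2 fell in 3D-iHA against 2D-iHepSC, where 72.3% of all genes were called (36.9% higher and 35.3% lower). Gja5, Tek, Vwf, Tie1 and Pecam1 rose and Eng and Cav1 fell there, and also in 3D-iHEA against 2D-iHepSCiEC, where 70.9% of all genes were called (36% higher and 34.9% lower). Gja5 and Pecam1 had at most 2 and 5 counts in a 2D library and passed the filter through the 3D libraries, while Kdr, which was lower in 3D, did not pass it. With the listed genes under the filter added, 5 of all 10 members rose and 3 fell in both comparisons, Kdr being the third that fell, and Erg was not called. These 2 comparisons share no library. In 2D-iHepSC against Fib, 5 of 10 members rose (Cdh5, Vwf, Tie1, Kdr and Cav1) and 2 fell (Erg and Eng), with 83.9% of all genes called (45.7% higher and 38.2% lower). There, Kdr passed the filter through the tissue libraries and Erg through those of tissue and Fib. With most genes called in all 3 comparisons, the number of members called is not a result about the members, and the values above are given for their size.

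The addition of iECs is compared in the plot of changes by member. No tested member was called higher in either co-culture, and all called members were lower. The iECs are human, so these counts of reads aligned to mouse are no measure of the iECs' own endothelial transcripts. Whether adding iECs raised endothelial transcripts of both species together was not tested. By qPCR, the study reports higher endothelial marker transcripts in hydrogel cultures with iECs than in monolayers of iECs or monolayer co-cultures. In 3D-iHEA against 3D-iHA, 5 of the 8 tested members fell and 0 rose by edgeR, where 2.26% of all genes were called (1.07% lower and 1.19% higher). The median was -0.61, beside -0.01 over all genes. At an unadjusted p under 0.05, 1 member (Eng) was higher, and DESeq2 called 0 higher and 6 lower. Tie1 fell 3.01-fold (log2 -1.59, SE 0.17, adjusted p = 0.000487) and Gja5 2.20-fold (-1.14, SE 0.11, adjusted p = 0.000177). Vwf fell by 0.70 on the log2 scale (SE 0.07, adjusted p = 0.000263), Cav1 by 0.66 (SE 0.05, adjusted p = 3.0e-05) and Tek by 0.57 (SE 0.05, adjusted p = 0.000156). Both 3D-iHEA libraries lay below both 3D-iHA libraries in these 5 genes, which adds no support, as the genes were picked by their calls. Cdh5 (-0.18, 95% interval -0.28 to -0.07, adjusted p = 0.095), Pecam1 (-0.27, -1.13 to 0.58) and Eng (0.73, 0.01 to 1.46, adjusted p = 0.39) were not called. With single libraries left out, Eng ranged from 0.27 to 1.42. The call of Cdh5 depended on the setting. It was called lower without the low-count filter (-0.19, adjusted p = 0.0144), by DESeq2 (-0.17, adjusted p = 0.0303) and when 3D-iHEA replicate 1 was left out (-0.22, adjusted p = 0.0122), and its adjusted p reached 0.521 over the other single removals. Both libraries of 3D-iHEA differed from each other more than those of the other cultures, and the 5 changes stayed between -1.89 (Tie1) and -0.55 (Tek) over all single removals.

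**Figure D2:**
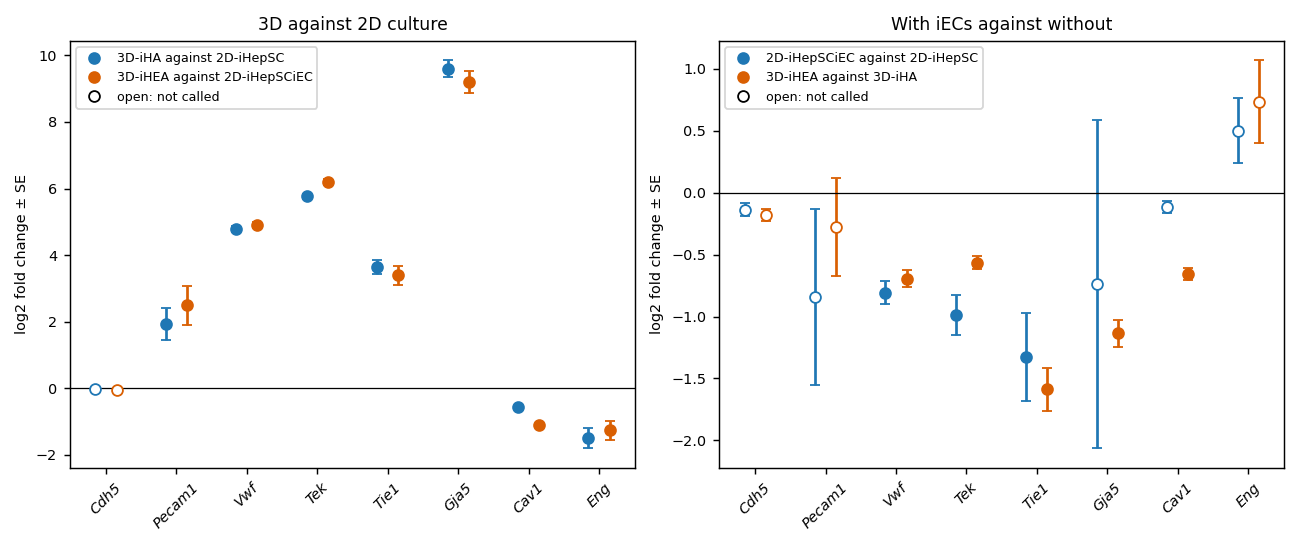
Log2 fold change ± SE of the 8 tested members, with 3D against 2D in the left panel and cultures with against without iECs in the right panel, where filled symbols are called and open symbols are not; Kdr and Erg were under the filter and are not drawn. Gja5, Tek, Vwf, Tie1 and Pecam1 lie to the positive side in 3D, while in the right panel all called symbols lie below 0.

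In 2D-iHepSCiEC against 2D-iHepSC, 3 of the 8 tested members fell and 0 rose, where 8.17% of all genes were called (3.92% lower and 4.26% higher). The median was -0.77, beside 0.00 over all genes, and without Gja5, at the floor in both conditions, it was the -0.81 of Vwf. By edgeR, 0 members were higher at an unadjusted p under 0.05 or by DESeq2. Vwf fell by 0.81 (SE 0.09, adjusted p = 0.000208), and this held with each library left out. Tek fell by 0.99 (SE 0.16, adjusted p = 0.0025), but without 2D-iHepSCiEC replicate 1 it was at -0.81 with an adjusted p of 0.0814. Tie1 fell by 1.32 (SE 0.36, adjusted p = 0.0395) from 41 and 31 to 13 and 13 counts, and it lost the call in 6 of the 8 single removals, with an adjusted p of up to 0.385. Cdh5 (-0.14, 95% interval -0.24 to -0.03), Cav1 (-0.11, -0.22 to -0.01) and Eng (0.50, -0.07 to 1.07) were not called, nor was Pecam1 (-0.84, SE 0.71, adjusted p = 0.548), with 5 counts in all in 2D-iHepSCiEC. Cdh5 was called lower when 3D-iHEA replicate 1 (adjusted p = 0.0296) or the other 3D-iHEA library (adjusted p = 0.0303) was left out of the fit. Whether the co-culture effect itself differed between 3D and 2D was tested by their difference, where 3.14% of all genes were called (1.62% lower and 1.52% higher). Only Cav1 passed among the 8 tested members, at -0.54 (SE 0.07, adjusted p = 0.00147). For Vwf the difference was 0.11 (95% interval -0.14 to 0.36), for Tek 0.42 (0.05 to 0.79, adjusted p = 0.292) and for Tie1 -0.26 (-1.19 to 0.67).

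Other genes moved with the addition of iECs, and their part in the members' changes was not tested. Of 13 tested endothelial junction and surface genes, 2 were lower and 0 higher in 3D-iHEA against 3D-iHA (15.4% called, beside 2.26% of all genes, median -0.20). In 2D, 1 was lower and 0 were higher (7.69%, beside 8.17%). No ligand, endothelial transcription factor or sinusoidal gene of the lists was called in 3D-iHEA against 3D-iHA. Among the caveolar coat genes, Cavin2 (-0.49, SE 0.06) and Ehd2 (-0.23, SE 0.05) fell in 3D-iHEA against 3D-iHA, and like Cav1 both were called for the difference between 3D and 2D (-0.60 and -0.42). Among the 14 tested receptors and coreceptors, 5 were higher in 2D-iHepSCiEC than in 2D-iHepSC (35.7% called, beside 8.17% of all genes, median 0.22), and in 3D 1 was higher and 2 were lower (21.4% called, beside 2.26% of all genes). Nrp2, the neuropilin-2 coreceptor, was higher with iECs in 3D (0.66, SE 0.13) and in 2D (0.91, SE 0.11), whereas Acvrl1 (-1.39, SE 0.25) and S1pr1 (-0.80, SE 0.17) were lower in 3D. Of 7 cholangiocyte and epithelial markers, 4 were higher in 3D-iHEA than in 3D-iHA (1.19% of all genes higher), with a summed level of 3101 to 3108 CPM against 2589 to 2712 CPM, led by Sox9 (1.85, SE 0.33) and Epcam (0.58, SE 0.07), whereas in 2D 1 of the 7 was lower with iECs. The summed level of 8 hepatocyte markers was 1034 to 1076 CPM over the 4 libraries of 3D cultures and 556890 to 595254 CPM in Adult-Liver. In 2D-iHepSCiEC against 2D-iHepSC, 3 of 6 tested hepatocyte markers were lower (3.92% of all genes). Alb, Cps1 and Tat were at the floor in 2D-iHepSCiEC and not in 2D-iHepSC, where Alb had 210 and 9 counts. Serpina1a was at the floor in all 4 cultures. Fibroblast markers summed to 3.81 and 4.06 CPM in 2D-iHepSC, 12.6 and 10.9 CPM in 2D-iHepSCiEC, 11.6 and 5.17 CPM in 3D-iHA and 6.30 and 4.38 CPM in 3D-iHEA against 26833 to 28406 CPM in Fib. Of 4 tested, 1 was called with iECs in each setting, Col1a1, which was higher in 2D (1.96, SE 0.20) and lower in 3D (-1.47, SE 0.33). Col1a2, Lum, Thy1 and Lrat were at the floor in every culture. Mouse Fn1, the fibronectin gene, had 7153 and 4573 counts in 3D-iHA and 13020 and 4280 in 3D-iHEA and was not called (0.61, SE 0.30, adjusted p = 0.438). The study assigns fibronectin to the human iECs and detected FN1 transcript by qPCR, and the protein, in iHEAs but not in iHLOs. Counts of reads aligned to mouse are no measure of human FN1 and do not bear on that result.

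The members were then set against liver tissue, where levels also depend on the cell types that the tissue holds. In 3D-iHA against Adult-Liver (84.9% of all genes called, 45.7% higher and 39.2% lower) 5 members were higher and 5 lower. Of the lower ones, Kdr and Erg passed the filter through libraries where they were high, so these counts are not a result about the members. With a filter of at least 5, 2 members were lower. Vwf (6.19, SE 0.13), Cav1 (4.88, SE 0.10), Gja5 (3.83, SE 0.24), Cdh5 (2.74, SE 0.07) and Tek (2.19, SE 0.08) were higher on the log2 scale. Eng (-7.71, SE 0.14), Pecam1 (-6.36, SE 0.17), Tie1 (-1.46, SE 0.13, turned by total count), Kdr (-10.37, SE 0.18) and Erg were lower, the last by at least 97.5-fold. Each of these members had the same sign against Fetal-Liver (85.6% called, 42.4% higher and 43.2% lower), with Cav1 at 4.16 (SE 0.08), Kdr at -9.36 (SE 0.19) and Erg lower by at least 97.3-fold. Both comparisons share the 3D-iHA libraries. Fib had only Cav1 (3.51, SE 0.10) and Erg (1.96, SE 0.12) above Adult-Liver, and the other 8 members were lower (87.3% of all genes called, 45.4% higher and 41.8% lower).

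Levels of different members can be compared per length of exon. On that scale, Cdh5 (101 CPM per kb), Cav1 (79.0), Vwf (44.3) and Tek (24.9) led in 3D-iHA. There, Eng (0.190) was low but above the floor, Pecam1 (0.0871) and Kdr were near it, and Erg was at 0. In Adult-Liver the order began with Eng (38.7 CPM per kb), Cdh5 (14.7), Kdr (13.4), Pecam1 (6.98) and Tie1 (6.88) and ended with Vwf (0.587) and Gja5 (0.290). The top member of Adult-Liver was thus among the lowest in the organoid libraries, as the plot of levels per length shows, and the members at the bottom of the tissue were in its upper or middle range. Fetal-Liver also began with Eng (15.1) and Cdh5 (14.5) and ended with Gja5 (1.17).

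**Figure D3:**
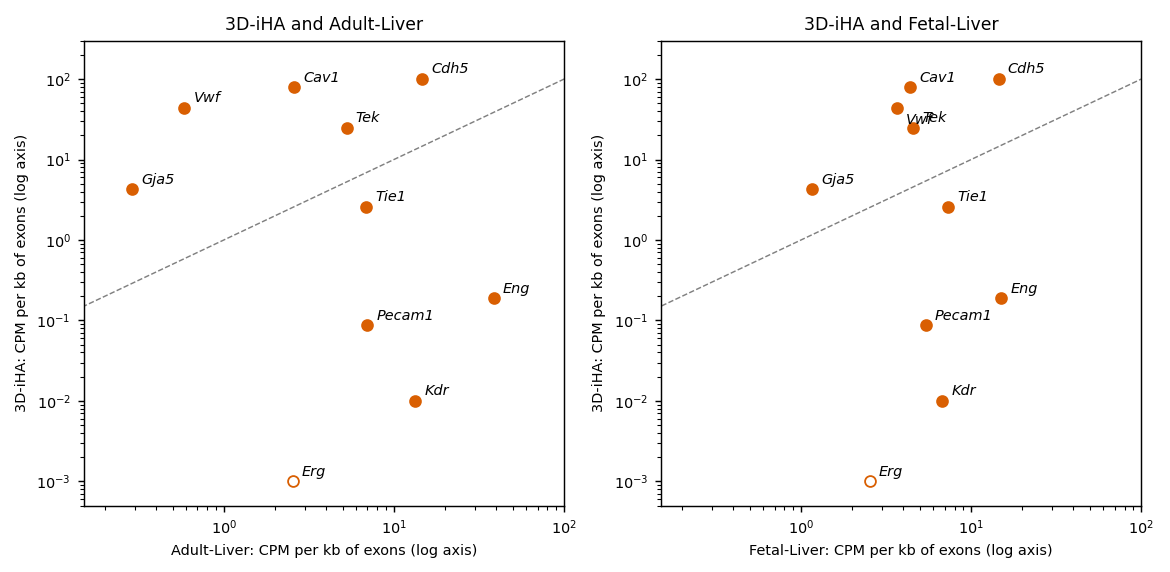
Mean CPM per kb of exon in 3D-iHA against Adult-Liver (left) and Fetal-Liver (right), both axes logarithmic, with the dashed line at equal levels and Erg drawn open because it had 0 counts in 3D-iHA. Cdh5, Cav1, Vwf, Tek and Gja5 lie above the line, and Eng, Pecam1, Kdr, Tie1 and Erg below it, with Tie1 against Adult-Liver turning by total count.

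Adult-Liver and Fetal-Liver differed in 7 of the 10 members, where 83.7% of all genes were called (40% higher and 43.8% lower). Eng (log2 1.39, SE 0.08), Kdr (1.01, SE 0.08), Pecam1 (0.39, SE 0.10) and Tek (0.24, SE 0.08) were higher in Adult-Liver on the TMM scale but lower by total count. By total count their mean CPM in Adult-Liver and Fetal-Liver were 67.9 against 71.0 (Eng), 52.4 against 71.2 (Kdr), 18.8 against 39.4 (Pecam1) and 10.8 against 24.9 (Tek). Scaling by DESeq2 size factors shifted the median of all genes by 0.11 here and by -0.15 in 3D-iHA against Adult-Liver. Vwf (-2.61, SE 0.13), Gja5 (-1.97, SE 0.27) and Cav1 (-0.72, SE 0.11) were lower in Adult-Liver. Without TMM they lay further apart, with mean CPM by total count of 4.08 against 68.0 (Vwf), 0.722 against 7.81 (Gja5) and 3.87 against 17.6 (Cav1). Vwf is also a product of megakaryocytes, and 10 markers of these cells summed to 519 to 634 CPM in Fetal-Liver, 28.7 to 28.9 CPM in Adult-Liver and 5.07 to 9.02 CPM in the cultures, where Gp1bb, Gp9 and Treml1 were at the floor. Their part in the difference between the tissues was not tested. Cdh5 (0.05, SE 0.07), Erg (0.03, SE 0.13) and Tie1 (-0.07, SE 0.12) were not called, although with DESeq2 size factors Cdh5 was at 0.17 (adjusted p = 0.0329). By total count all 3 were lower in Adult-Liver, at 26.7 against 71.0 CPM (Cdh5), 3.81 against 10.2 CPM (Erg) and 14.7 against 42.0 CPM (Tie1).

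Further endothelial genes are drawn in the heatmap of 3 marker lists. Of 20 junction and surface genes outside the members, 13 were tested, and 8 rose and 4 fell in 3D-iHA against 2D-iHepSC, beside 36.9% of all genes higher and 35.3% lower. Icam2, an adhesion molecule of resting endothelium, had 85 and 73 counts in 2D-iHepSC and 396 and 445 in 3D-iHA (log2 2.52, SE 0.15), whereas Selp, the P-selectin gene whose product is stored with von Willebrand factor, went from 11008 and 9595 to 1547 and 1357 (log2 -2.72, SE 0.08). Vcam1 rose (2.54, SE 0.07), and Thbd, the thrombomodulin gene, fell (-5.27, SE 0.29). Cldn5, the claudin of endothelial tight junctions, was at 0 counts in Fib and all cultures, and Emcn, Mmrn1 and Cd93 were at the floor in all cultures. Of 13 sinusoidal genes, 11 were tested against Adult-Liver, and 1 was higher and 10 were lower in 3D-iHA, beside 45.7% of all genes higher and 39.2% lower. They summed to 64.8 to 109 CPM in the cultures, 464 to 507 CPM in Fetal-Liver and 1160 CPM in each Adult-Liver library. In 3D-iHA against 2D-iHepSC, 9 were tested, and 3 were higher and 3 lower (66.7% called, beside 72.3% of all genes). Of the 3 that rose, Stab2, a scavenger receptor of the sinusoids, had 127 and 99 counts in 3D-iHA against 6 and 9 in 2D-iHepSC (log2 3.99, SE 0.30). Macrophage markers summed to 18.5 to 23.8 CPM in the cultures and 1468 to 1558 CPM in Adult-Liver, and erythroid markers to at most 1.02 CPM in the cultures and 33261 to 34077 CPM in Fetal-Liver.

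**Figure D4:**
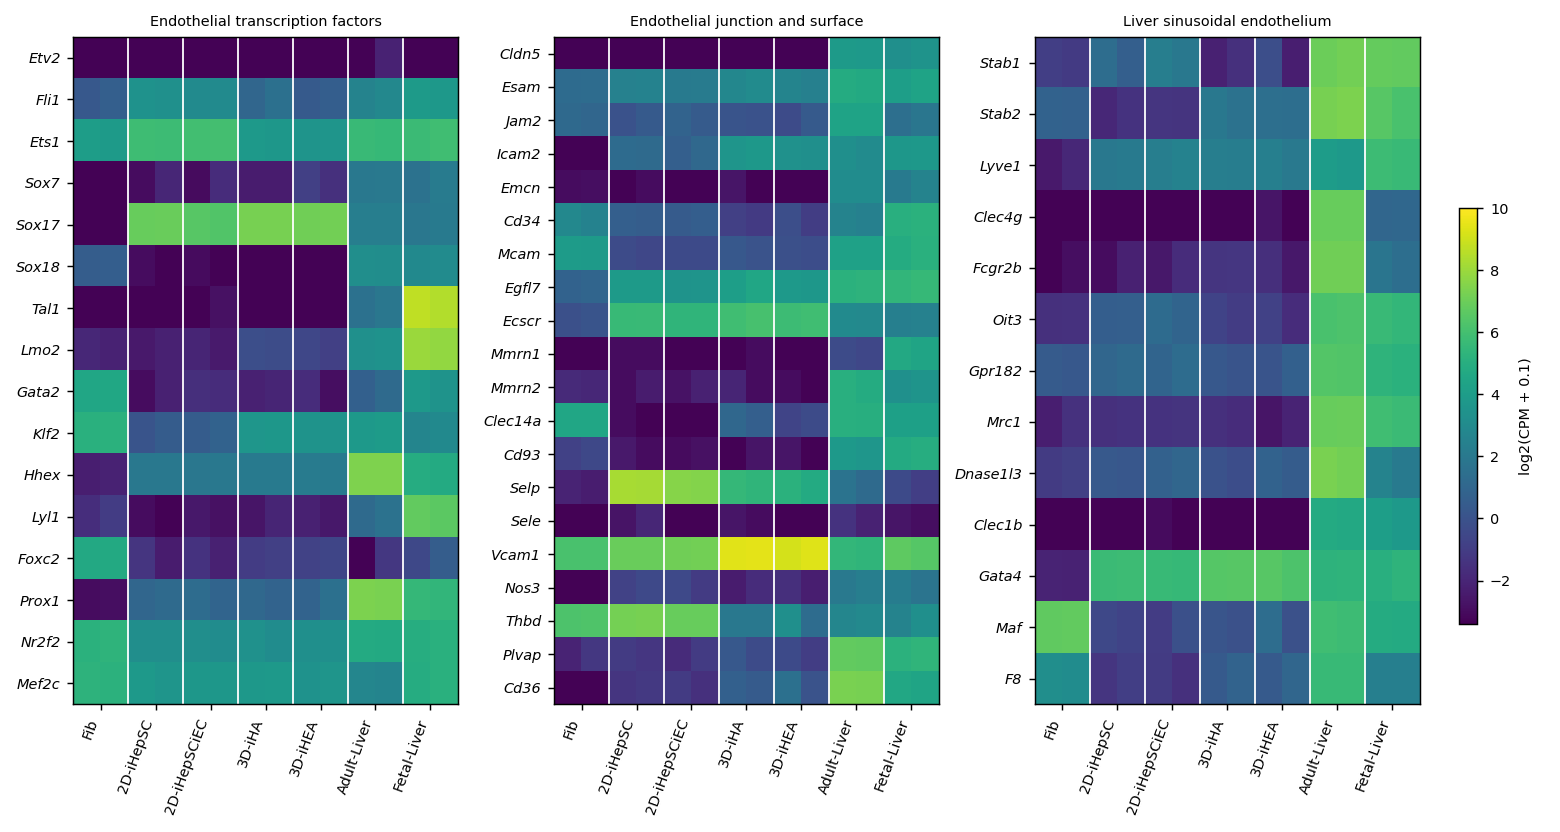
Heatmaps of log2(CPM + 0.1) in the 14 libraries for the lists of endothelial transcription factors, junction and surface genes and sinusoidal genes. Sox17, Vcam1 and Selp stand out in the culture columns, and most sinusoidal genes are high only in the tissue columns.

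Where neighbouring conditions in the order of a member's levels were tested in the fit of 14 libraries, several did not pass. Of 14121 genes, 124 were higher and 105 lower between 3D-iHEA and 3D-iHA, and 361 higher and 453 lower between 2D-iHepSCiEC and 2D-iHepSC, while 66.7% to 87.3% were called between other neighbours. No step among the 4 cultures passed for Cdh5 (adjusted p = 0.519, 0.154 and 0.284 from the highest to the lowest). 2D-iHepSC and 2D-iHepSCiEC did not pass for Cav1 (adjusted p = 0.322), Kdr (0.96) or Eng (0.135), nor did 3D-iHA and 3D-iHEA for Pecam1 (0.886) or Eng (0.272). Fib and 2D-iHepSC were not distinguished for Tek (0.821), Pecam1 (0.784) or Gja5 (0.68).

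The genes whose log2 CPM ran most like each member over the 14 libraries, by Pearson's r as a description, were mostly no endothelial genes. For Cdh5 these were Dsp (0.997), Frrs1 (0.996) and Pls1 (0.994), of which Dsp encodes the desmosomal protein desmoplakin. For Vwf they were Tmem41a, Ttc39a and Uhmk1 (0.994 to 0.992), for Cav1 Cdkn1a, Cblb and Ptpra (0.995 to 0.994), and for Tie1 Slc16a10, Laptm5 and Ttr (0.977 to 0.968). The neighbours of Tek were Dtx1, Tff3 and Wnk2 (0.988 to 0.980), and those of Gja5 were Kcnk3 (0.984), Alox5ap (0.981) and Tek itself (0.973). For the members that were highest in tissue, they were Hdc, Irf8 and 2810459M11Rik for Pecam1 (0.993 to 0.990), Gpx1 and the sinusoidal gene Oit3, among others, for Kdr (0.993 and 0.992), and Dusp22, Mrpl37 and Mospd3 for Eng (0.991 to 0.988). Erg ran with Zfp709, Sgce and Evc (0.999 to 0.997). Among the members themselves, r ranged from -0.946 (Pecam1 and Cav1) to 0.973 (Tek and Gja5). The 14 points come from 7 conditions with 2 libraries each, so these values mostly describe differences between conditions.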

How the data were processed

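RNA was sequenced as 150 bp paired-end reads. The authors aligned the reads with HISAT2 to GRCm38 and counted them per gene with HTSeq, and the submitters' processing notes also name Trimmomatic 0.36 and Cufflinks. How strand and reads matching several genes were handled is not given in the sources used here. The deposited values are raw counts. Genes with a mean log2(count + 1) of 3 or more were kept, scaled by TMM and tested in edgeR 4.0.16 (R 4.3.3, limma 3.58.1) by quasi-likelihood, with 1 term per condition and Benjamini-Hochberg adjustment at 0.05. The 4 cultures were fitted together, and comparisons with fibroblasts or liver used all 14 libraries. DESeq2 1.42.0 was an alternative. Ratios of low counts carry exact binomial intervals at 95%, and these intervals and the floor of 3 counts cover counting error only. An adjusted p printed beside such a ratio or bound is that of the edgeR test, which estimates the fold change separately. CPM per kb used the union of exons, and similar genes were ranked by Pearson's r of log2 CPM with a prior count of 2, 3 per member. Positions came from GENCODE on GRCm38, in which 27619 genes (98.6%) matched once, and are 1-based. All 10 members are named by the rule, and other genes come from fixed lists. The members and lists were chosen with earlier results of these data known. The second 3D-iHEA column carried 2 numbers and was used without a number. The edgeR test was checked on simulated counts for 3D-iHEA against 3D-iHA and 2D-iHepSC against Fib only. A small share of genes was changed there, none of them near the floor. The check does not cover genes near the floor or comparisons in which most genes differ. Some genes that met these rules are not reported here.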

Additional observations from a re-analysis of the deposited data

Results flagged for a closer look

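For Cav1, the effect of adding iECs differed between 3D and 2D culture, which the interaction term of the edgeR fit tested directly. The difference was -0.54 on the log2 scale (SE 0.07, adjusted p = 0.00147), with a change of -0.66 in 3D and -0.11 in 2D. In 3D, both libraries with iECs (169 and 175 CPM) lay below both without (272 and 273 CPM), and in 2D 375 and 387 CPM stood beside 426 and 407 CPM. The difference stayed between -0.58 and -0.50 under every alternative that was run and was called in each.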

How the results depend on the processing

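Of the summaries that count members, 371 recomputed values stayed within 1.5 times of the reported count and 10 did not. Of the values for single members, 1645 kept their direction and their side of the threshold, 30 turned (none of them called in either setting), 8 gained a call (all of Cdh5) and 7 lost one (Tie1 and Tek in 2D-iHepSCiEC against 2D-iHepSC). By total count, 46 of the 70 mean levels moved by more than the spread between libraries. With a filter of at least 5, which leaves fewer members to test, 3 members were higher in 3D-iHA against 2D-iHepSC and 3 in 3D-iHEA against 2D-iHepSCiEC, 1 was lower in 2D-iHepSC against Fib, 2 were higher in Adult-Liver against Fetal-Liver, 2 were lower in 3D-iHA against Adult-Liver and 2 against Fetal-Liver, and 1 was higher and 5 were lower in Fib against Adult-Liver. With only the 4 libraries compared, 3 were higher in 2D-iHepSC against Fib. With each library left out, 1 to 4 members were lower in 2D-iHepSCiEC against 2D-iHepSC, 5 to 6 in 3D-iHEA against 3D-iHA, and 4 to 5 were higher in 3D against 2D. Without the filter, Cdh5 turned to 0.019 in 3D-iHA against 2D-iHepSC and Tek to 0.031 against Fib, and with the filter of at least 5 Cdh5 was at 0.00062. DESeq2 size factors and the DESeq2 Wald test gave Tie1 0.054 and 0.055 in Adult-Liver against Fetal-Liver. Single removals gave log2 values of -0.26 to 0.23 for Tek, -0.42 to 0.11 for Pecam1 and -2.17 to 2.96 for Gja5 (2D-iHepSC against Fib), -3.04 to 2.32 for Gja5 (2D-iHepSCiEC against 2D-iHepSC), -0.27 to 0.049 for Pecam1 (3D-iHEA against 3D-iHA), -3.44 to 1.91 for Gja5, -0.66 to 0.074 for Tie1, -0.23 to 0.93 for Eng and -0.084 to 0.0025 for Cdh5 (difference between 3D and 2D), -0.033 to 0.033 and -0.084 to 0.0030 for Cdh5 (3D against 2D without and with iECs), and -0.077 to 0.040 for Tie1 (Adult-Liver against Fetal-Liver). Deviations of equally numbered culture libraries correlated at -0.039 to -0.011 over 3 pairs of conditions, with 3D-iHEA left out. Equal numbers thus showed no shared shift, but this cannot tell whether such libraries were prepared together. A fit with the number as a replicate block, over the 7 numbered culture libraries, gave 0.33 for Pecam1 in 3D-iHEA against 3D-iHA, 0.057 for Tie1 and 0.0095 for Cdh5 in the difference between 3D and 2D, and 0.00028 and 0.0098 for Cdh5 in 3D against 2D without and with iECs. The same libraries without the replicate block, an alternative chosen after seeing the data, gave 0.049 for Pecam1 and, in the same order, 0.0025, 0.00045 and 0.0030 for Cdh5. The cause of these shifts was not tested. Depth limits Pecam1, Kdr and Erg in the cultures and Gja5 in 2D, where most libraries had fewer than 30 counts.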
